A study of Arabidopsis thaliana with 18 samples.

Results

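The RNA levels of 4 Arabidopsis thaliana genes that inactivate auxin or answer to it were followed across 18 single-colour Affymetrix arrays. The genes were GH3.3, WES1, AT1G14130 (known as DAO1) and IAA29, each the single gene named for 1 probe set, and these 4 probe sets were taken from the 22810 on the array. Wild-type plants (accession Col-0) and the mutant tga2-5-6, named for TGA transcription factors, were sampled after 4 h with 0.5% methanol in water (control), with 75 µM phytoprostane A1 (PPA1) or with 75 µM OPDA. Below, untreated and without compound both mean this control with 0.5% methanol. Each of the 6 groups held 3 arrays, described by the labels as independent replicates. The labels name the samples plant material, without organ, age or growth conditions, and do not say whether the compounds were given in methanol.

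Auxin, chiefly indole-3-acetic acid, controls cell expansion and division in plants, and its level is lowered by conjugation and by oxidation. GH3 enzymes join auxin to amino acids, and DAO dioxygenases carry out the oxidation. Auxin acts by bringing Aux/IAA repressors to TIR1/AFB receptors for destruction, which frees the ARF factors, and many GH3 and Aux/IAA genes are themselves raised by auxin. OPDA is the enzymatic precursor of jasmonic acid. PPA1 arises by non-enzymatic oxidation of the fatty acid that OPDA is made from. The compounds are cyclopentenones, and of the pair only PPA1 has a hydroxyl group on a side chain. TGA factors are bZIP proteins that take part in the plant's answer to salicylic acid and to such electrophilic lipids, and the series asks which genes they regulate under these compounds.

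Levels are intensities on a linear scale, given as mean ± SD over 3 arrays, and differences are log2 differences ± SE from a limma model of all 18 arrays, with 95% intervals. The number of arrays limits the precision, and the p-values measure only the spread between these arrays. The 4 genes were chosen by their differences between these groups in earlier results of the same arrays. GH3.3 was noted for OPDA against control in Col-0 and for PPA1 against OPDA in both genotypes, and WES1 for OPDA against control in tga2-5-6. For AT1G14130 and IAA29 the comparison behind the choice is not known. All comparisons are therefore treated as used by the choice, and the values of the 4 genes are a description with no test. The other auxin genes described further on were tested, and a gene passed where its level changed at least 2-fold with an adjusted p under 0.05. Their lists were also chosen with earlier results of these arrays known.

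Median intensity per array ran from 159 to 185, and the correlation of log2 values was 0.905 to 0.937 within groups and 0.877 to 0.930 between groups. TGA2, TGA5 and TGA6 had 0 probe sets assigned to them alone, so the genotype labels were not checked through them. The GAPDH 3'/5' control ratio had group means from 0.953 ± 0.0721 in tga2-5-6 with PPA1 to 1.55 ± 0.471 in untreated tga2-5-6. For actin the 3'/5' ratio was highest in the untreated mutant (48.3 ± 16.8), followed by the untreated wild type (34.4 ± 11.7), and it averaged 28.1 to 30.4 in each treated group. The part of these ratios in the results was not tested. Of 6 fixed shoot markers 1 was measured, RCA, the Rubisco activase of green tissue, at group means from 15235 to 20409. Of 9 root markers 2 were measured, the root-hair expansins EXP7 and EXPA18, both present in untreated plants. No other marker of these lists was measured.

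GH3.3 encodes an enzyme that conjugates auxin to amino acids. In untreated Col-0 its intensity was 199, 184 and 248 on the 3 arrays, and with OPDA it was 1228, 1015 and 1474. The OPDA arrays all lay above the controls, with group means of 211 ± 33.2 and 1239 ± 230. The log2 difference was 2.55 ± 0.25 (95% interval 2.01 to 3.09), a 5.86-fold higher level. With PPA1 the Col-0 arrays stood at 208, 349 and 268, which overlaps the controls. That difference was 0.36 ± 0.25 (-0.18 to 0.90).

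In tga2-5-6 GH3.3 stood at 409, 278 and 327 without compound, above all 3 untreated Col-0 arrays (difference 0.68 ± 0.25, 95% interval 0.14 to 1.22). With OPDA the mutant reached 1015, 668 and 555. These arrays lay above the mutant's controls, and the highest of them matched the lowest Col-0 OPDA array to within 1 unit. The difference from control was 1.11 ± 0.25 (0.57 to 1.65), a 2.16-fold higher level. With PPA1 the mutant stood at 299, 250.5 and 236, with a difference of -0.36 ± 0.25 (-0.90 to 0.18). The response in the mutant minus that in Col-0 was -1.44 ± 0.35 for OPDA (-2.20 to -0.68) and -0.72 ± 0.35 for PPA1 (-1.49 to 0.04). The higher untreated level of the mutant enters both of these differences. By mean level, untreated Col-0 was lowest, followed by tga2-5-6 with PPA1, Col-0 with PPA1, untreated tga2-5-6, tga2-5-6 with OPDA and Col-0 with OPDA. The single gap between neighbours in this order without overlap of arrays separated untreated tga2-5-6 from tga2-5-6 with OPDA.

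**Figure D1:**
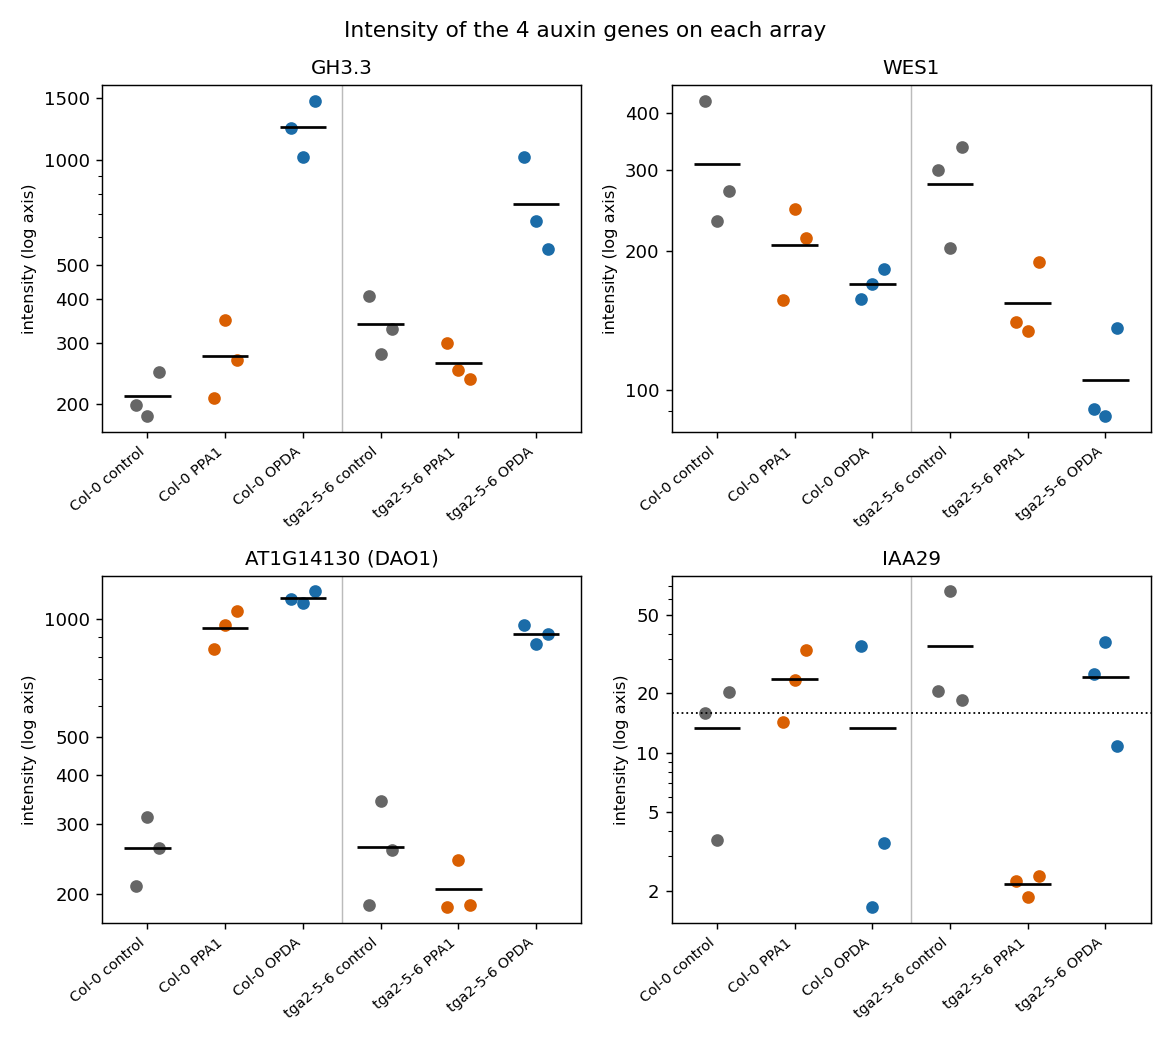
Intensity (log axis) of GH3.3, WES1, AT1G14130 and IAA29 on each array, by genotype and treatment; points are arrays, black bars are means of 3, and the dotted line marks an intensity of 16, the value of the filter on dim probe sets. GH3.3 is highest in the OPDA groups of both genotypes, AT1G14130 is high with both compounds in Col-0 but only with OPDA in tga2-5-6, WES1 is highest in the controls, and IAA29 lies around or below 16 on many arrays.

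WES1 encodes another GH3 enzyme, which acts on auxin and on salicylic acid, and unlike GH3.3 it stood lower with OPDA than in control. Untreated Col-0 arrays stood at 425, 233 and 271, PPA1 arrays at 157, 247 and 214, and OPDA arrays at 157, 169.6 and 183. The OPDA arrays were all below the controls, while the PPA1 arrays overlapped them. The log2 differences from control were -0.56 ± 0.27 with PPA1 (95% interval -1.14 to 0.02) and -0.82 ± 0.27 with OPDA (-1.40 to -0.24).

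In tga2-5-6 WES1 stood at 299.9, 203 and 338 without compound, at 141, 134 and 190.1 with PPA1 and at 90.9, 87.7 and 137 with OPDA. Both treated groups lay below the mutant's controls, and the OPDA group had the lowest mean of all 6 groups, 105 ± 27.3. The differences from control were -0.84 ± 0.27 with PPA1 (-1.42 to -0.26) and -1.41 ± 0.27 with OPDA (-2.00 to -0.83), a 2.66-fold lower level. The genotypes differed without compound by -0.13 ± 0.27. The response in the mutant minus that in Col-0 was -0.28 ± 0.38 for PPA1 (-1.10 to 0.54) and -0.60 ± 0.38 for OPDA (-1.42 to 0.23). When the 6 group means were put in order, every group overlapped its neighbour. The root-hair marker EXPA18 had lower levels in the same groups, 123 ± 14.0 with PPA1 and 98.6 ± 8.72 with OPDA against 483 ± 130 in untreated Col-0, and 134 ± 55.7 and 107 ± 10.1 against 542 ± 134 in tga2-5-6. EXPA18 passed the limma test in all 4 of these comparisons, with adjusted p from 3.08e-04 to 0.00193. The second marker, EXP7, went from 303 ± 143 to 60.5 ± 38.9 with PPA1 and 86.6 ± 34.5 with OPDA in Col-0, and from 242 ± 51.8 to 89.8 ± 24.8 and 115 ± 23.6 in the mutant. It passed for PPA1 in Col-0 alone (adjusted p = 0.0183). In such bulk samples fewer cells of a type and less RNA per cell cannot be told apart, and the part of root-hair RNA in the levels of WES1 was not tested.

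AT1G14130 is DAO1, a dioxygenase of auxin oxidation. In untreated Col-0 it stood at 209, 313 and 262, with PPA1 at 835, 963 and 1044, and with OPDA at 1123, 1097 and 1172. All treated arrays lay above the controls, and the OPDA arrays lay above those with PPA1. The differences from control were 1.87 ± 0.21 with PPA1 (95% interval 1.43 to 2.32), a 3.66-fold higher level, and 2.13 ± 0.21 with OPDA (1.69 to 2.58), a 4.39-fold higher level.

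In tga2-5-6 without compound AT1G14130 stood at 187, 343 and 258, overlapping untreated Col-0 (difference -0.01 ± 0.21, 95% interval -0.46 to 0.43). With PPA1 it stood at 185, 244 and 188, overlapping the mutant's controls, and with OPDA at 960.2, 861 and 912, above them. The difference from control was -0.32 ± 0.21 with PPA1 (-0.77 to 0.12) and 1.84 ± 0.21 with OPDA (1.39 to 2.28). The response in the mutant minus that in Col-0 was -2.20 ± 0.29 for PPA1 (-2.82 to -1.57) and -0.30 ± 0.29 for OPDA (-0.92 to 0.33). The mean levels formed a low set of 3 groups, untreated plants of both genotypes and tga2-5-6 with PPA1, at 205 to 263, and a high set of 3 groups at 911 to 1130.3. No array of the low set reached any of the high set. Within the low set neighbours overlapped, as did tga2-5-6 with OPDA and Col-0 with PPA1 in the high set.

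**Figure D2:**
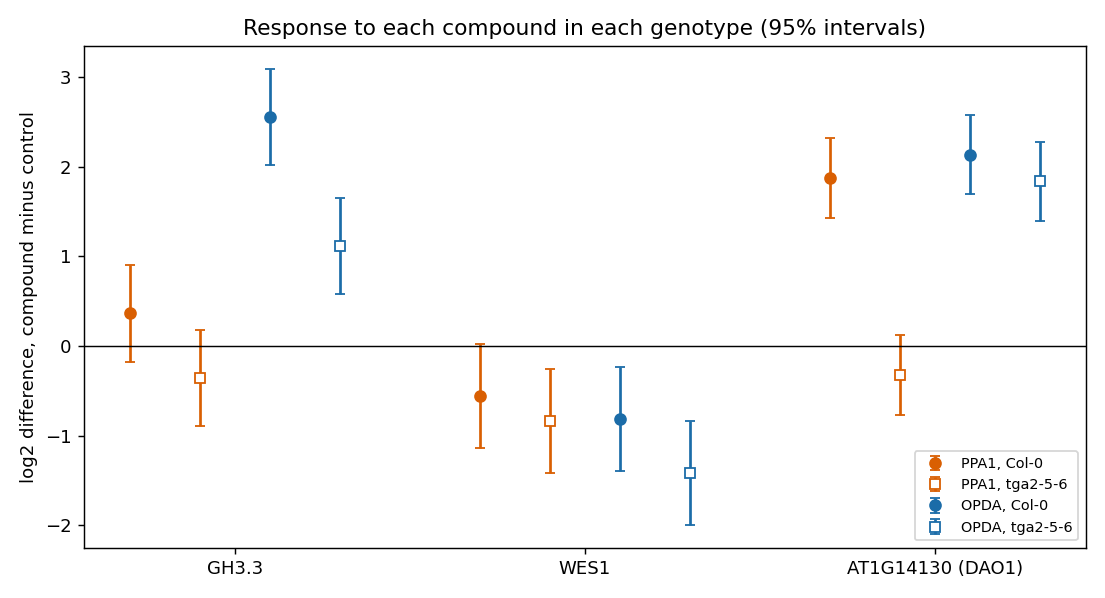
Log2 difference of compound minus control for GH3.3, WES1 and AT1G14130 in Col-0 (filled circles) and tga2-5-6 (open squares), with 95% intervals from the model of all 18 arrays. AT1G14130 with PPA1 stands at 1.87 in Col-0 and at -0.32 in tga2-5-6, while its values with OPDA are 2.13 and 1.84; IAA29 is not drawn because its levels lie near the floor.

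AT1G14120, known as DAO2, is the next annotated gene to AT1G14130 on the chromosome and encodes a related dioxygenase. It was not among the 4 genes and was tested. The lists that hold it were chosen with earlier results of these arrays known, so its p-values are not free of that choice. In Col-0 it stood at 674 ± 78.2 in control, 825 ± 167 with PPA1 and 6806 ± 773 with OPDA. Every OPDA array lay above every other Col-0 array, and the PPA1 arrays overlapped the controls. With OPDA it rose by 3.34 ± 0.16 (limma adjusted p = 3.56e-07), whereas with PPA1 the difference was 0.28 ± 0.16 (-0.07 to 0.63, adjusted p = 0.455). In tga2-5-6 it stood at 534 ± 43.9 in control, 618 ± 94.5 with PPA1 and 4765 ± 314 with OPDA. The difference with OPDA was 3.16 ± 0.16 (adjusted p = 7.30e-07) and with PPA1 0.20 ± 0.16 (adjusted p = 0.542). PPA1 against OPDA gave -3.06 ± 0.16 in Col-0 (adjusted p = 3.92e-07) and -2.96 ± 0.16 in tga2-5-6 (adjusted p = 8.58e-07). The genotype difference of its PPA1 response was -0.08 (95% interval -0.58 to 0.42, adjusted p = 0.961). For AT1G14130 the corresponding value, given as a description, was -2.20. Whether the probes of these related genes share targets was not tested here.

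**Figure D3:**
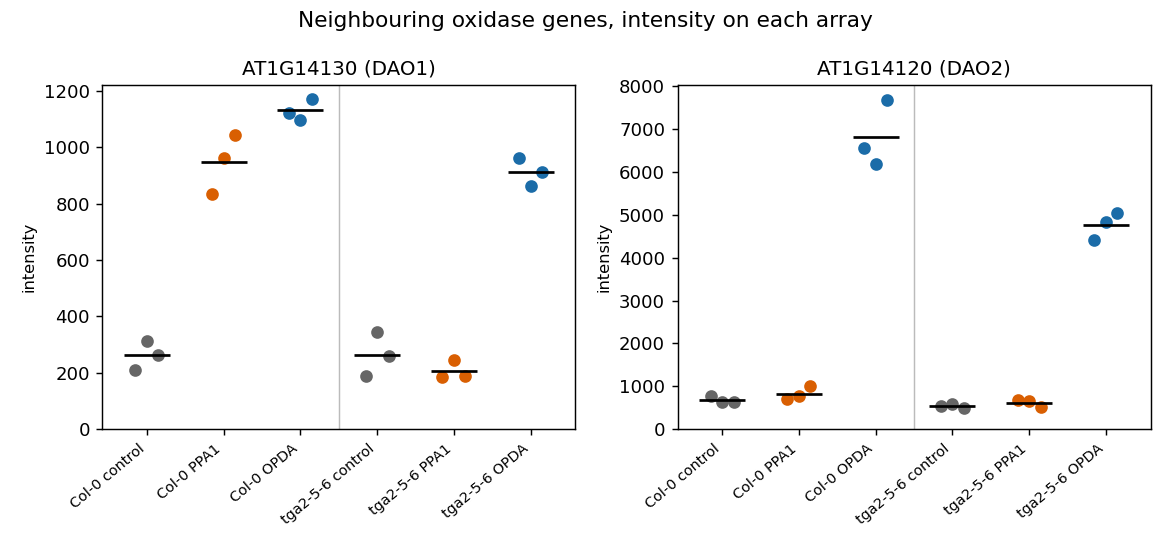
Intensity (linear axes from 0, a separate scale for each gene) of the neighbouring genes AT1G14130 (DAO1) and AT1G14120 (DAO2) on each array; points are arrays and black bars are means of 3. With PPA1 in Col-0, AT1G14130 stands at 835 to 1044 against 209 to 313 in control, and AT1G14120 at 701 to 1015 against 628 to 764.

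IAA29 encodes an Aux/IAA repressor, known to be raised in shade. Its probe set was dim, with 9 of 18 arrays at or above 16, the value of the filter on low values, and it was kept because 3 such arrays sufficed. The intensities were 15.9, 3.62 and 20.4 in untreated Col-0, 14.3, 23.5 and 33.0 with PPA1, and 34.9, 1.65 and 3.48 with OPDA. These 3 groups overlapped, and the spread within a group was as wide as the differences between groups. In tga2-5-6 the arrays stood at 20.5, 65.7 and 18.6 without compound, 2.24, 1.85 and 2.38 with PPA1, and 25.1, 36.3 and 10.9 with OPDA. The PPA1 arrays of the mutant were the only group with all arrays below 16 and with no overlap with another group of the mutant. Since this level is under the filter value, the size of the difference from control is not known. With values below 16 set to 16 it was -0.87 on the log2 scale.

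For PPA1 against OPDA, 1 pair of compounds at the same dose and time, there were 8 values over the 4 genes and both genotypes. GH3.3 was lower with PPA1 in Col-0 by a log2 difference of -2.19 ± 0.25 (95% interval -2.73 to -1.65) and in tga2-5-6 by -1.47 ± 0.25 (-2.01 to -0.93). AT1G14130 differed by -0.26 ± 0.21 in Col-0 (-0.70 to 0.18) and by -2.16 ± 0.21 in tga2-5-6 (-2.60 to -1.72). WES1 differed by 0.26 ± 0.27 in Col-0 (-0.33 to 0.84) and 0.57 ± 0.27 in tga2-5-6 (-0.01 to 1.16). In tga2-5-6 IAA29 had a mean of 24.1 ± 12.7 with OPDA and below 16 with PPA1, and in Col-0 its arrays overlapped between the compounds. The compounds share their controls in each genotype, so the responses to them are not independent.

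Other genes of the auxin pathway were taken from lists arranged by role, which held 117 genes. Of the 113 that are not the 4 genes above, 18 were measured, that is, had a kept probe set assigned to them alone. They were GH3.9 and GH3.17, which conjugate auxin, AT1G14120, the glycosyltransferases UGT84B1 and UGT74D1, 6 Aux/IAA genes, 4 YUC genes of auxin synthesis, and the auxin-raised regulators HAT2, LBD16 and LBD29. GH3.1 was the single annotated gene that failed the filter. No gene of the ARF, TIR1/AFB, transport or conjugate hydrolysis lists was measured. The annotation assigned no probe set to any of them alone, so their absence says nothing about their expression. Of the 18 genes 6 had a group mean under 16 and 7 stood at 50 or more in every group.

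In Col-0, 0 of the 18 passed with PPA1 (limma), while 2.50% of all 21869 probe sets passed. With OPDA 1 of 18 passed, AT1G14120, against 4.95% of all probe sets. In tga2-5-6, 1 of 18 passed with PPA1, GH3.17, against 2.71%, and 2 of 18 with OPDA, AT1G14120 and GH3.17, against 6.47%. PPA1 against OPDA gave 1 of 18 in each genotype, AT1G14120, against 3.57% in Col-0 and 3.57% in tga2-5-6. Without compound 0 of 18 passed between the genotypes, against 0.535% of all probe sets. For the genotype difference of the response 0 of 18 passed for PPA1, against 0.00915% of all probe sets, and 0 for OPDA, against 0%. At an unadjusted p under 0.05 (limma) there were 7 of 18 with PPA1 and 2 with OPDA in Col-0. In tga2-5-6 there were 5 and 5. PPA1 against OPDA gave 4 in each genotype, the untreated genotypes 3, and the genotype difference 4 for PPA1 and 1 for OPDA. No share of all probe sets was computed at an unadjusted p, so these counts have no background to be read against. The median log2 difference of the 18 genes was 0.05 with PPA1 and -0.19 with OPDA in Col-0, and -0.43 and -0.43 in tga2-5-6. The medians of all probe sets were -0.05, -0.12, -0.13 and -0.17 in the same order.

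GH3.17, another gene for an enzyme that conjugates auxin, stood at 729 ± 59.5 in untreated Col-0, 352 ± 140 with PPA1 and 341 ± 41.5 with OPDA. In tga2-5-6 it stood at 1079.7 ± 203, 247 ± 124 and 435 ± 90.4. All treated arrays lay below the controls of their genotype. In the mutant it fell by 2.28 ± 0.38 with PPA1 (adjusted p = 0.00401) and by 1.31 ± 0.38 with OPDA (adjusted p = 0.0368). The first call was lost in the fit to the arrays of that comparison alone (adjusted p = 0.142). The second was lost in the same kind of fit (0.0507), with arrays centred on their medians (0.0603) and when replicate 1 or 3 of the untreated or of the OPDA-treated mutant was left out (0.0976 to 0.123). In Col-0 the differences were -1.12 ± 0.38 (adjusted p = 0.143) and -1.10 ± 0.38 (adjusted p = 0.0961). The genotype difference of its response was -1.16 ± 0.53 for PPA1 (adjusted p = 0.670) and -0.21 ± 0.53 for OPDA (adjusted p = 0.962). EXPA18 was lower in the same groups with values given above, and its part in the levels of GH3.17 was not tested.

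UGT74D1, an auxin glucosyltransferase gene described here after its values were seen, had 1017 ± 40.7 in untreated Col-0, 1750 ± 309 with PPA1 and 965 ± 157 with OPDA. In tga2-5-6 it had 555 ± 76.8, 508 ± 99.6 and 386 ± 66.8, and every mutant array lay below every Col-0 array. With PPA1 the difference from control was 0.77 ± 0.19 in Col-0 (limma adjusted p = 0.0443), short of 2-fold. In tga2-5-6 the difference of PPA1 from control was -0.14 ± 0.19 (adjusted p = 0.748). PPA1 against OPDA gave 0.85 ± 0.19 in Col-0 (adjusted p = 0.0192) and 0.39 ± 0.19 in tga2-5-6 (adjusted p = 0.331). The genotype difference of the PPA1 response was -0.91 ± 0.27 (adjusted p = 0.399), and without compound the genotypes differed by -0.88 ± 0.19 (adjusted p = 0.0622). Of the 28 other Aux/IAA genes on the list, 6 were measured: IAA18, IAA20, IAA30, IAA31, IAA33 and IAA34. Among these 6 none passed in any of the 9 comparisons, and the rest of the family was not seen here. IAA18, the single one of them above 50 in every group and described here after its values were seen, stood at 374 ± 19.0 in the untreated mutant, 540 ± 32.5 with PPA1 and 583 ± 97.0 with OPDA. Its difference there was 0.53 ± 0.14 with PPA1 (adjusted p = 0.0497) and 0.63 ± 0.14 with OPDA (adjusted p = 0.0106), both short of 2-fold. In Col-0 it was 0.49 ± 0.14 (adjusted p = 0.0787) and 0.18 ± 0.14 (adjusted p = 0.532). HAT2 and LBD16, also described after their values were seen, had all PPA1 arrays below the controls of each genotype. HAT2 differed by -0.92 ± 0.28 in Col-0 (limma adjusted p = 0.0941) and -0.94 ± 0.28 in tga2-5-6 (adjusted p = 0.0722). LBD16 differed by -0.98 ± 0.34 (adjusted p = 0.161) and -1.08 ± 0.34 (adjusted p = 0.0923). With OPDA the arrays of both overlapped the controls, and neither gene passed in any comparison. IAA20 had the largest difference of the 18 genes for PPA1 in Col-0, between untreated plants and for the genotype difference of the PPA1 response, but had group means from 3.58 to 34.7 (adjusted p from 0.257 to 0.549). YUC4 had the largest for the genotype difference of the OPDA response, with group means from 11.3 to 30.1 (adjusted p = 0.872).

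**Figure D4:**
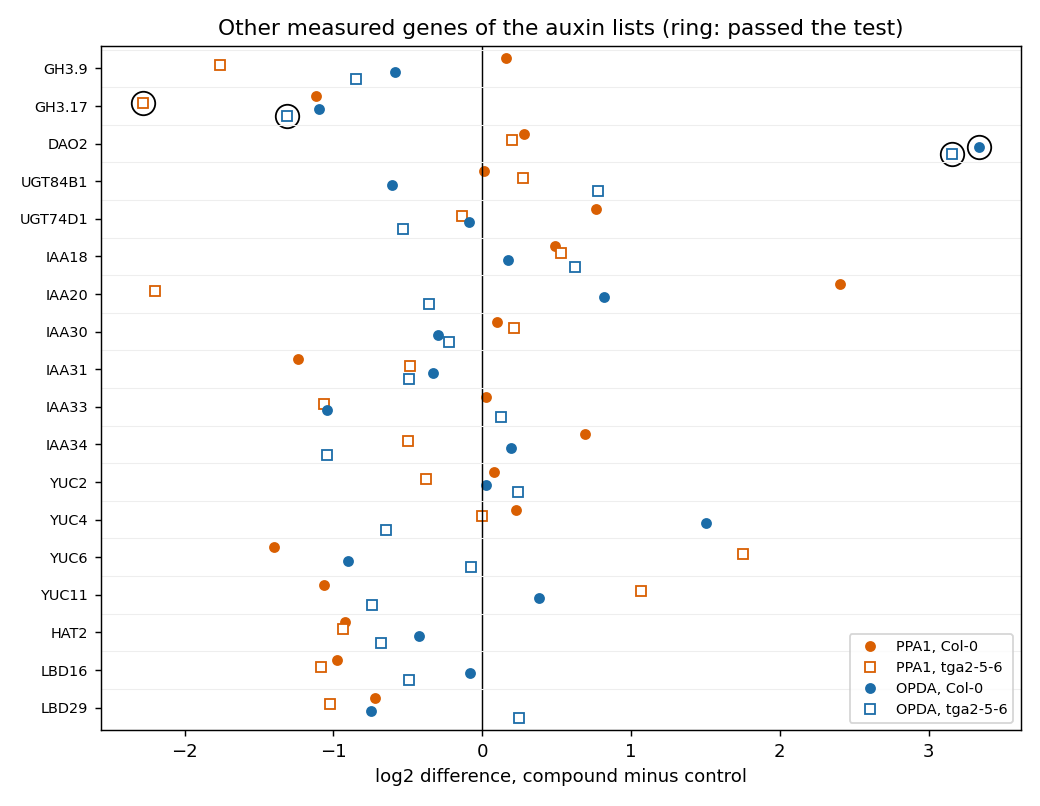
Log2 difference of compound minus control for the 18 other measured genes of the auxin lists, in Col-0 (filled circles) and tga2-5-6 (open squares); rings mark values that passed with an adjusted p under 0.05 and at least 2-fold. DAO2 (AT1G14120) passed with OPDA in both genotypes and GH3.17 passed with both compounds in tga2-5-6; no other gene has a ring.

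Likeness in pattern was measured as Pearson's r of log2 values over the 18 arrays among 9598 probe sets with 1 gene and a mean of at least 50 in some group (9599 for IAA29). The arrays fall into treatment groups, so a high r mostly records shared group differences, and it is given as a description. The genes most like GH3.3 were AT1G31710, which encodes a copper amine oxidase (r = 0.916), AT1G14120 (r = 0.909) and AT1G62660, which encodes a vacuolar invertase (r = 0.904). By ranks AT1G14120 was less close, with a Spearman rho of 0.622. AT1G31710 had group means of 2449 and 2310 with OPDA in Col-0 and tga2-5-6 and of 349 to 569 in the other groups. For WES1 the 3 highest were AT3G14240, a subtilisin-like protease gene (r = 0.885), AT3G04550 (r = 0.883) and AT5G20885 (r = 0.882). AT3G04550 ran from 1706 and 1748 in untreated Col-0 and tga2-5-6 to 678 in tga2-5-6 with OPDA, where WES1 too was lowest. For AT1G14130 they were AT3G04000, which encodes a short-chain dehydrogenase (r = 0.927), AT4G23050 (r = 0.923) and the glycosyltransferase gene UGT76E11 (r = 0.889). AT3G04000 stood at 157, 561 and 935 in untreated, PPA1-treated and OPDA-treated Col-0 and at 106, 141 and 435 in tga2-5-6. For the dim IAA29 the highest were AT5G37050 (r = 0.829), AT2G27140 (r = 0.821) and AT4G17610 (r = 0.785).

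Among the 4 genes themselves, r over the 18 arrays was 0.668 for GH3.3 with AT1G14130, -0.474 for GH3.3 with WES1 and -0.473 for WES1 with AT1G14130. For IAA29 with the other 3 it was 0.026 to 0.238. With the group means taken out, the r of GH3.3 with AT1G14130 was -0.161 and that of GH3.3 with WES1 was 0.109. For WES1 with AT1G14130 it was -0.474.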

How the data were processed

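The deposited table holds 1 intensity per probe set and array on a linear scale, from 0.0678 to 41686. The authors had scaled each array: the mean after trimming 2% at each end was 500.05 to 500.06 on all arrays. GCRMA is named per the submitters' processing notes, but its output is log2 and quantile-normalized and the deposited intensities are neither, so the algorithm is not given in the sources used here. Values were raised to at least 1 before taking log2, 64 array controls were removed, and a probe set was kept if it reached 16 on 3 or more arrays (21869 of 22810). Of the probe sets, 13513 had 1 gene in the array annotation, 503 had several and 8730 none; names come from TAIR10.1 through the gene identifier.

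With limma 3.58.1 (R 4.3.3), 1 mean per group was fitted over the 18 arrays (12 residual and 1.50 prior degrees of freedom), two-sided, with Benjamini-Hochberg adjustment over the kept probe sets. The 9 comparisons set each compound against control, and the compounds against each other, within a genotype, the untreated genotypes against each other, and the response to each compound between genotypes. In a test on simulated data in which 200 of 21869 probe sets were changed, 2-fold changes were recovered in 25% and 4-fold changes in 64.4% of cases for PPA1 against control in Col-0. For the genotype difference of the PPA1 response the shares were 12.7% and 38.9%, with 0 calls of wrong sign. Changes of 3 on the log2 scale were recovered in 61.2% and 61.5% of cases in these comparisons. A pass needs an estimate of at least 2-fold, and this rule also holds down the share recovered among true 2-fold changes. The members, lists and tests were chosen with earlier results of these data known. Named list genes were the 3 highest and 3 lowest that passed in a comparison, or the largest change where none passed. The 3 genes most like each member were named too. UGT74D1, IAA18, HAT2 and LBD16 were added after their values were seen. No pairing of arrays by replicate number was seen: the deviations of same-numbered arrays from their group means correlated at -0.0539 to 0.0673 over 45 pairs. For differently numbered arrays of different groups the range was -0.0804 to 0.0789 over 90 pairs. A small effect shared by arrays of the same number could go unseen in such correlations.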

Additional observations from a re-analysis of the deposited data

Results flagged for a closer look

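With PPA1, the differences of AT1G14130 from control had opposite signs in the genotypes. The one in tga2-5-6 was no clear change, at -0.32 with a 95% interval of -0.77 to 0.12. All 3 PPA1 arrays of Col-0 lay above the mean of its controls, and all 3 PPA1 arrays of tga2-5-6 lay below the mean of theirs, although the mutant's arrays overlapped its controls. The genotype difference of the response was -2.20, and it was not tested. For IAA29 too the PPA1 arrays lay above the control mean (of log2 values) in Col-0 and below it in tga2-5-6, but here the Col-0 arrays overlapped their controls and the mutant arrays did not. Its intensities were 14.3 to 33.0 with PPA1 in Col-0 and 1.85 to 2.38 in tga2-5-6. The computed genotype difference of -4.85, also not tested, rests on these values under the filter value of 16 and is no measure of size. With intensities below 16 set to 16 it was -1.28, and the Col-0 array at 14.3 then no longer lay above the control mean.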

How the results depend on the processing

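Over 138 recomputed values each, the differences of GH3.3, WES1 and AT1G14130 moved by at most 1.19-fold, for all leave-one-out fits and other settings run. Their signs held except for tga2-5-6 against Col-0 in control of WES1 and of AT1G14130, values near 0 (2 sign changes each). IAA29 changed sign in 7 of 129 values and moved by up to 11.8-fold, with the floor of 16. Of the genes most like each member, the likeness of AT1G31710 to GH3.3 was 0.812 by Spearman's rho in place of r = 0.916, and that of AT5G37050 to IAA29 was 0.705 by rho and 0.939 over group means in place of 0.829. For the gene most like WES1 (AT3G14240) and the gene most like AT1G14130 (AT3G04000) the measures differed by under 0.1. Some of the genes named further down differed by more. AT4G23050 with AT1G14130 had a rho of 0.777 in place of r = 0.923. AT3G04550 with WES1 had 0.994 over group means in place of 0.883.

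The number of auxin-list genes passing, of 18, was 2 in place of 1 for OPDA in Col-0 with an intensity trend and with the arrays of the comparison alone. For PPA1 in tga2-5-6 it was 2 after quantile normalization and 0 with the arrays of the comparison alone, in place of 1. For OPDA in tga2-5-6 it was 1 in place of 2 with median centring and with the arrays of the comparison alone. For the untreated genotypes it was 1 in place of 0 after quantile normalization. Leaving out 1 array gave 1 to 2 for PPA1 against OPDA in Col-0 (2 without Col-0 PPA1 replicate 1), 1 to 2 for PPA1 in tga2-5-6 (2 without tga2-5-6 control replicate 2) and 1 to 2 for OPDA in tga2-5-6 (1 without replicate 1 or 3 of the untreated or OPDA-treated mutant).

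Over all probe sets, the arrays of the comparison alone gave 221 calls for PPA1 in Col-0 (546 in the main model), 484 for PPA1 against OPDA in Col-0 (781), 94 for PPA1 in tga2-5-6 (592), 718 for OPDA in tga2-5-6 (1414), 356 for PPA1 against OPDA in tga2-5-6 (780) and 6 for the untreated genotypes (117). The genotype difference of the PPA1 response gave 2 calls, 26 with a floor of 16, 24 with an intensity trend, 0 after quantile normalization, 0 with the arrays of the comparison alone and 1 with the replicate block. That of the OPDA response gave 0, and 5 with a floor of 16. Leaving out 1 array gave 351 to 622 for PPA1 in Col-0 (351 without Col-0 PPA1 replicate 3), 361 to 630 for PPA1 in tga2-5-6 (361 without tga2-5-6 PPA1 replicate 1, 369 without tga2-5-6 control replicate 1), 43 to 86 for the untreated genotypes (43 without Col-0 control replicate 3), 0 to 7 for the genotype difference of the PPA1 response (7 without tga2-5-6 PPA1 replicate 2) and 0 to 3 for that of OPDA (3 without tga2-5-6 OPDA replicate 3). The replicate block changed no other count by over 1.5 times. The causes were not tested.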
